A study of Mus musculus with 10 samples.

Results

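The Igkv12 family is a group of variable (V) gene segments of the mouse immunoglobulin kappa light chain locus (Igk). Its members were taken by name as 7 listed segments: IGKV12-38, IGKV12-40, IGKV12-41, IGKV12-44, IGKV12-46, IGKV12-89 and IGKV12-98, written Igkv12-38 and so on below, as the mouse gene annotation writes them. They are 7 of the 114 V segments in the deposited repertoire and held 7227 of its 161780 counts (4.47%). A further segment with an Igkv12 name held 78 counts (0.0482%) and was not among the listed members. The study sequenced Igk transcripts from small pre-B cells sorted by flow cytometry from mouse bone marrow. There were 5 samples labelled WT and 5 labelled rsCBE, a genotype that the series' text writes with a delta and that the labels do not spell out. The series' text describes C57Bl6 mice of 6 to 12 weeks, and the labels name no treatment, cross or further allele in either group. The title concerns CTCF, a protein that organises chromatin loops, and receptor editing.

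A kappa light chain gene is made by joining 1 V segment to 1 of the J segments, and the joint codes for the third complementarity determining region (CDR3) of the chain. V segments that point the same way as the J segments join by deletion of the DNA between them, and those that point the other way join by inversion. After a first join, an allele can recombine again when a V segment lying farther upstream is joined to a later J segment. This replaces the earlier join and is the basis of receptor editing.

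All 7 members were found in the GENCODE M21 annotation of GRCm38 (mm10), on chromosome 6, and each has 2 exons there. A group of 5 lies close together, with Igkv12-38 at 69943186 to 69943648, Igkv12-40 at 69879350 to 69879819 and Igkv12-41 at 69858420 to 69858884. Igkv12-44 lies at 69814631 to 69815154 and Igkv12-46 at 69764523 to 69765022. These are 779 to 958 kb from J1. The other two lie farther out, Igkv12-89 at 68834846 to 68835307, which is 1887 kb from J1, and Igkv12-98 at 68570763 to 68571235, which is 2151 kb from J1. Igkv12-98 is on the forward strand with the J segments and joins by deletion, and the other 6 members are on the reverse strand and join by inversion. Igkv12-40 is annotated as a pseudogene and the other 6 as V genes. A stop codon, TAG, was found in its reference sequence at codon 37 of the V region, counted from the first codon after the leader. An Igkv12-40 join can therefore be in frame at the CDR3 and still hold a stop upstream.

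The 7 V regions of 287 bases were 78.4% (Igkv12-89 and Igkv12-98) to 95.5% (Igkv12-41 and Igkv12-44) identical. The part of each that enters the CDR3, 23 bases after the conserved cysteine codon, is printed here because the joints described below are read against it. The capitals mark the last 3 bases, which the most frequent in-frame joint of every member lacked.
Igkv12-38: aaacaggcttatgacgttccTCC
Igkv12-40: caacattattatggtactccTCC
Igkv12-41: caacatttttggagtactccTCC
Igkv12-44: caacatcattatggtactccTCC
Igkv12-46: caacatttttggggtactccTCC
Igkv12-89: caaaatgtgttaagtactccTCC
Igkv12-98: caacaactttacagtactccTCT
Igkv12-41 and Igkv12-46 differed by 1 base in this stretch, as did Igkv12-40 and Igkv12-44. The table gives 1 V call per line, so how reads of such similar segments were divided cannot be seen, and the counts of these members are uncertain for that reason.

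Total counts per sample ran from 3109 to 24083. The family held 1245, 1044, 590, 117 and 411 counts in WT replicates 1 to 5 and 1120, 1021, 672, 577 and 430 in rsCBE replicates 1 to 5. WT replicate 4 was thus the thinnest sample, with 1 count of Igkv12-98 and 7 each of Igkv12-38 and Igkv12-89. Replicates 1 and 2 of each genotype were deposited as 1 library and replicates 3 to 5 as 2 parts, which were added. V use differed between these deposition sets, with 57.1% of 98 tested V segments called (edgeR quasi-likelihood test, adjusted p under 0.05). The labels name no batch, and both sets held both genotypes. Nothing in the labels says that the samples came from separate animals, so p-values measure the spread between these samples. The libraries hold 1 locus, so markers of the labelled cell type were not measured.

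The family's share of the repertoire was not called different between the genotypes. It made up 5.47%, 4.88%, 4.27%, 3.76% and 4.49% of counts in WT replicates 1 to 5. In rsCBE replicates 1 to 5 it made up 4.65%, 4.38%, 3.68%, 4.05% and 3.69%. The 2 ranges overlapped, and the highest values were those of the 1-library WT samples. The WT mean was 4.57% ± 0.64 and the rsCBE mean 4.09% ± 0.43 (SD, n = 5 each). In edgeR's quasi-likelihood test this was a log2 fold change of -0.17 (SE 0.14), with an adjusted p of 0.576. By mean share Igkv12 was the 9th of 20 V families, and none of the 20 was called (0%), with 2 at an unadjusted p under 0.05. DESeq2 also called 0 families. The family's share was lower in the 2-part samples than in the 1-library samples, with a log2 fold change of -0.27 and an adjusted p of 0.0296 in edgeR, where 55% of families were called. A share of transcripts can change through the number of cells or through RNA per cell, and these cannot be told apart.

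**Figure D1:**
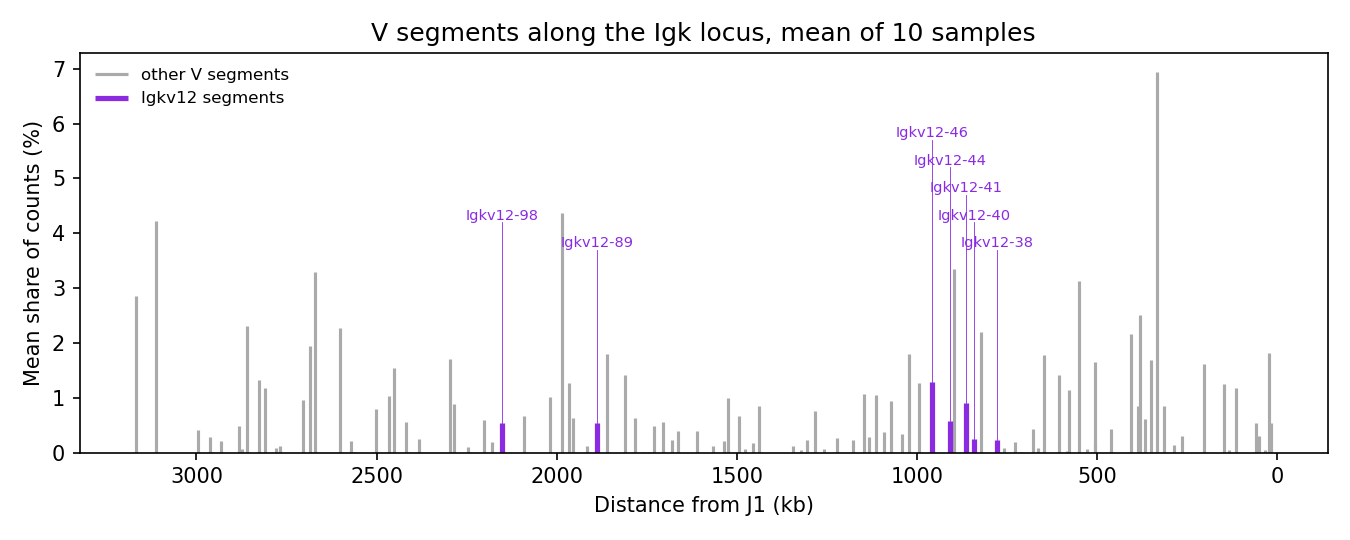
Mean share of counts over the 10 samples (y axis, percent) for each V segment placed by its distance from J1 (x axis, kb); purple bars are the 7 Igkv12 segments and grey bars the other annotated V segments. A group of 5 lies within 779 to 958 kb of J1, Igkv12-89 and Igkv12-98 lie at 1887 and 2151 kb, and Igkv12-46 is the tallest of the 7 at 1.29%.

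Within the family Igkv12-46 was used most, at 1.29% of all counts as the mean of 10 samples, and ranked 26th of 114 V segments. Igkv12-41 followed at 0.907%, Igkv12-44 at 0.585%, Igkv12-98 at 0.539%, Igkv12-89 at 0.534%, Igkv12-40 at 0.254% and Igkv12-38 at 0.228%. No 2 neighbours in that order passed the test of their difference. The exact sign-flip tests within samples gave adjusted p values from 0.0527 (Igkv12-46 over Igkv12-41, higher in 9 of 10 samples, and Igkv12-89 over Igkv12-40, higher in 8 of 10) to 0.928. These are shares of amplicon counts, and how the efficiency of amplification differed between segments was not tested.

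Igkv12-46 made up 1.92%, 1.64%, 1.22%, 0.901% and 1.55% of all counts in WT and 1.47%, 1.41%, 0.925%, 0.878% and 0.952% in rsCBE. Its ranges overlapped, and the 2-part rsCBE samples were all below 1%. Its log2 fold change in edgeR, -0.37 (SE 0.24), did not pass (adjusted p 0.973). Igkv12-40, the pseudogene, made up 0.176%, 0.187%, 0.0868%, 0.322% and 0.251% in WT and 0.307%, 0.365%, 0.285%, 0.239% and 0.317% in rsCBE. WT replicates 4 and 5 reached the rsCBE range, the former with 10 counts of this segment. Its log2 fold change of 0.63 (SE 0.36) was the largest of the 7 in size and did not pass, with an adjusted p of 0.929 by edgeR and 0.217 with the deposition set in the model.

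Igkv12-44 made up 0.417%, 0.252%, 0.999%, 0.772% and 0.655% in WT and 0.274%, 0.270%, 0.548%, 0.864% and 0.798% in rsCBE. The samples divided by deposition set and not by genotype: the 4 single-library samples were all below the 6 samples given as 2 parts. In edgeR the segment was higher in the 2-part samples by 1.36 on the log2 scale (SE 0.24, adjusted p 0.000115), while its log2 fold change between genotypes was -0.16 (SE 0.44, adjusted p 0.992). Igkv12-46 (log2 -0.58), Igkv12-89 (log2 -0.68) and Igkv12-98 (log2 -0.76) were lower in the 2-part samples at adjusted p values of 0.00492, 0.0257 and 0.0393. So 1 of 7 members was called higher and 3 lower between the sets, against 30.6% of all segments higher and 26.5% lower.

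Between genotypes none of the 7 members was called, and none of 98 segments was (0%) by edgeR, with 7 at an unadjusted p under 0.05, none of them a member. DESeq2 called 0 as well. The members' log2 fold changes ran from -0.45 (Igkv12-89) to 0.63, 5 below 0 and 2 above. Their median was -0.16, beside -0.05 over all 98 segments, of which 55.1% were below 0. The direction was not stable for Igkv12-44, whose log2 fold change was 0.11 at its highest when a sample was left out, and for Igkv12-98, which stood at -0.07 without WT replicate 4 and 0.17 with it.

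**Figure D2:**
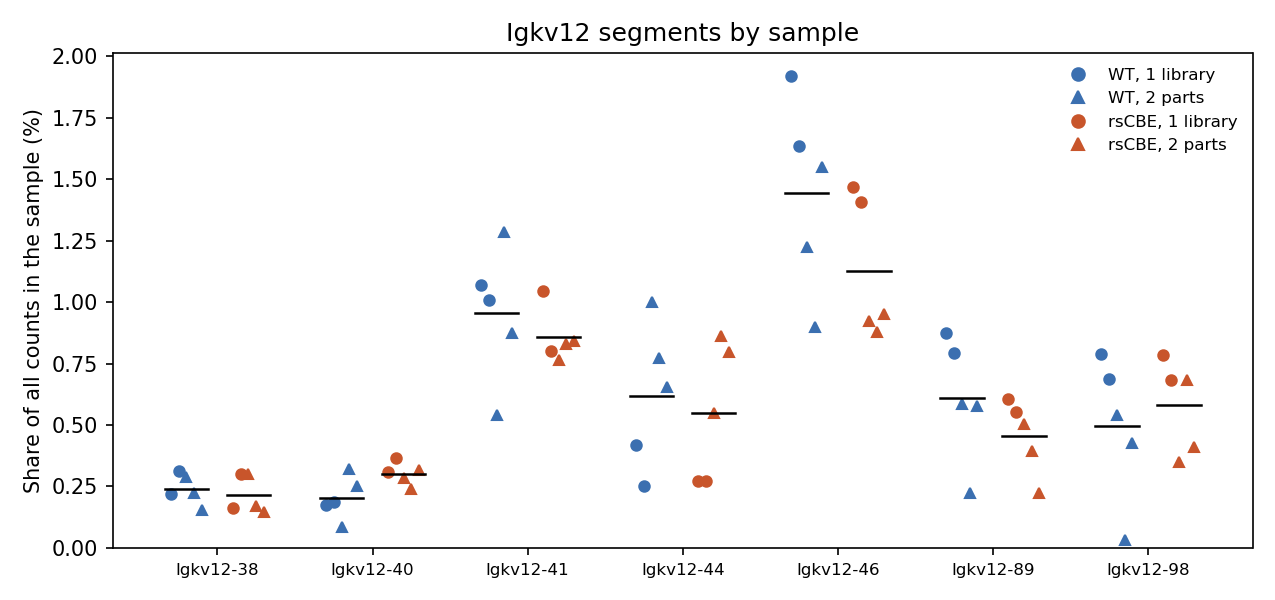
Share of all counts in a sample (y axis, percent) of each Igkv12 segment (x axis); each point is 1 sample, blue for WT and orange for rsCBE, with circles for samples deposited as 1 library and triangles for those deposited as 2 parts, and lines at the group means. WT and rsCBE points overlap for all 7 segments, and for Igkv12-44 every triangle lies above every circle.

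The V segments whose share followed the family most closely across the 10 samples were Igkv8-27, Igkv17-121 and Igkv19-93. Likeness was the root mean square difference of log2 share, each centred on its own mean, and was 0.183, 0.190 and 0.202 among 54 segments with a mean share of at least 0.5%. All of these shares come from the same 10 libraries, so this is a description.

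The J segment chosen by Igkv12 joins differed between the genotypes. The J5 share of the family's counts was 15.8%, 15.9%, 26.1%, 26.5% and 24.1% in WT replicates 1 to 5. It was 33.0%, 31.7%, 34.2%, 33.8% and 33.0% in rsCBE. Every rsCBE sample lay above every WT sample, and the 1-library WT samples were the lowest. The WT mean was 21.7% ± 5.39 and the rsCBE mean 33.2% ± 0.9499 (SD, n = 5 each), a gap of 11.5 points. Exact permutation gave p = 0.00794, which is the lowest value possible for 5 against 5 samples, or 0.0491 after adjustment over 68 tests of V family and J segment. Of those 68 tests 16.2% were called, and of the 17 families 23.5% were called for J5. J5 was higher in rsCBE in 17 of 17 families, with a median difference of 9.20 points and a highest of 14.9, and the Igkv12 difference was the fifth from the top.

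The rise was present within both deposition sets, at 16.5 points among the 1-library samples and 8.12 points among the 2-part samples. The call was close to its threshold. It ended when labels were exchanged within deposition sets only, where the exact permutation p of 0.0167 was the smallest possible (adjusted p 0.0872). It also ended when each clonotype was counted once (7.72 points, exact permutation p 0.0238, adjusted p 0.159). With replicate numbers as pairs all 5 pairs rose, and the exact sign-flip p was 0.0625, the smallest that 5 pairs allow, so that test could not pass (adjusted p 0.224). When 1 sample was left out the difference was 10.02 to 12.7 points. Since the groups do not overlap, the unadjusted p cannot leave its minimum there. The adjusted p, which depends on the other families too, ran from 0.0284 (without WT replicate 4) to 0.0981 and was under 0.05 only without WT replicate 4.

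The J5 rise of the family was set against that of the other V segments. All other joins had a J5 share of 29.0% ± 4.18 among WT samples and 39.4% ± 1.10 among rsCBE samples (SD, n = 5 each). The family's J5 share minus that of the other joins was -8.51, -10.5, -2.27, -8.70 and -6.52 points in WT and -5.76, -9.01, -5.49, -4.11 and -6.96 points in rsCBE. The genotypes overlapped, and every sample was below 0. This offset differed by 1.04 points between genotypes, which was less than its spread (exact permutation p = 0.540), so a rise particular to the family was not detected. It was 0.235 points without WT replicate 2 and 2.30 points without WT replicate 3 (exact permutation p 0.0952).

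J1, the J segment nearest to the V segments, took 46.99%, 47.3%, 59.0%, 29.1% and 46.5% of the family's counts in WT and 37.3%, 36.0%, 32.6%, 38.6% and 37.4% in rsCBE. The other 4 WT samples lay above all rsCBE samples, while WT replicate 4, with 117 family counts, lay below all of them. The means were 45.8% ± 10.7 and 36.4% ± 2.33 (SD, n = 5 each), a difference of -9.36 points that did not pass (adjusted p 0.202 by exact permutation). Without WT replicate 4 it was -13.5 points (adjusted p 0.0284 by exact permutation). J1 was called in 29.4% of the 17 families with all samples. The WT and rsCBE means were 19.5% ± 8.87 and 18.6% ± 0.319 for J2 and 13.0% ± 3.52 and 11.7% ± 2.12 for J4 (SD, n = 5 each). Neither passed, at adjusted exact permutation p values of 0.869 and 0.675. The WT samples spread widely for J2, from 7.80% in replicate 3 to 29.9% in replicate 4, while the rsCBE samples lay between 18.1% and 18.9%. J3 was nearly unused, at 0.0958% in WT replicate 2, 0.179% in rsCBE replicate 1 and 0 in the other 8 samples.

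**Figure D3:**
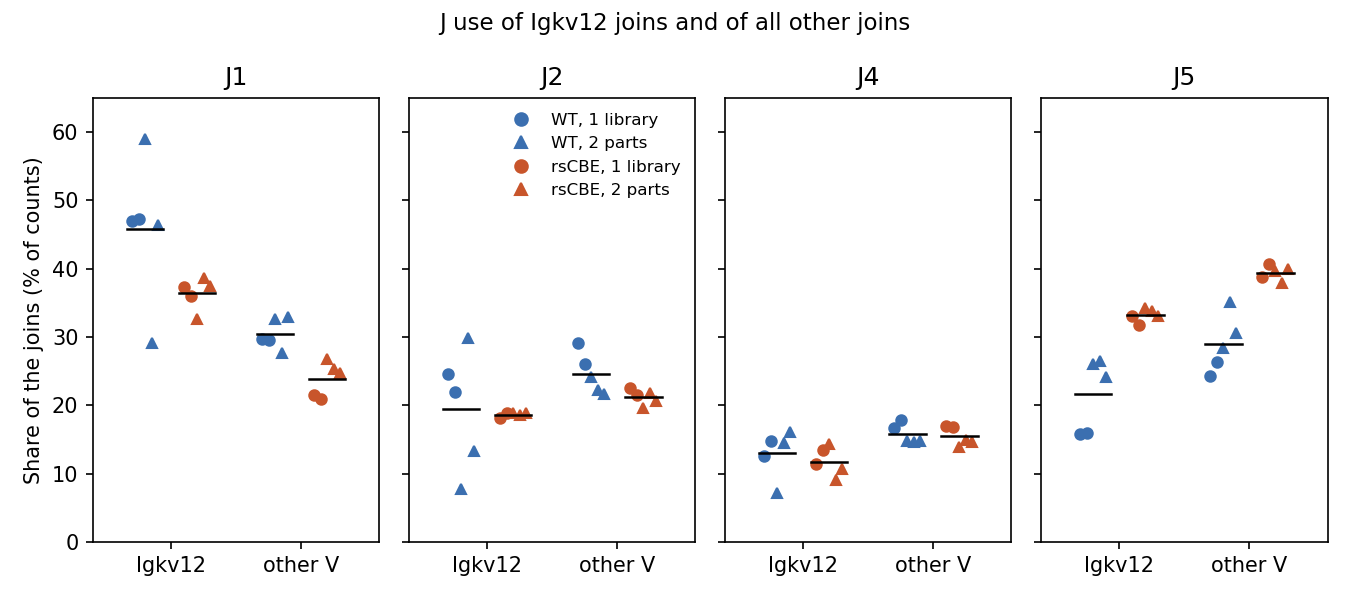
Share of joins to J1, J2, J4 and J5 (y axis, percent of counts) for Igkv12 joins and for the joins of all other V segments; each point is 1 sample, coloured by genotype, with circles for 1-library and triangles for 2-part samples and lines at the group means. Within each sample the Igkv12 value is above that of the other joins for J1 and below it for J5, and for J5 the rsCBE points lie above the WT points in both sets of joins.

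Set against the pooled other V segments of the same sample, Igkv12 joins were rich in J1 and poor in J5. The trait was not particular to the family, which by mean share was the 7th highest of 20 families for J1 and the 9th lowest for J5, with Igkv10 at 55.0% and Igkv13 at 51.1% J1 beside 41.1% in Igkv12. These within-sample comparisons were chosen after the data were seen. The J1 share was higher by 13.9 points ± 6.73 (SD, n = 10) and the J5 share lower, at -6.78 points ± 2.49 (SD, n = 10). J1 was higher in 10 of 10 samples and J5 lower in 10 of 10, each with an exact sign-flip p of 0.00195, the smallest possible, and an adjusted p of 0.00326 over 5 tests. J4 was lower by a mean of -3.23 points (8 of 10 samples, adjusted exact p 0.0171) and J2 by -3.85 points (9 of 10 samples, adjusted exact p 0.0625). With the in-frame share given below, 80% of these 5 tests were called. The J1 offset ran from 1.45 points in WT replicate 4 to 26.3 points in WT replicate 3.

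The members did not share 1 J pattern. Igkv12-41, Igkv12-44, Igkv12-46, Igkv12-89 and Igkv12-98 used J1 for 40.2% to 53.5% of their counts as means of 10 samples, and J5 for 18.3% to 28.9%. Igkv12-40 used J1 for 13.4% and J5 for 60.2%, and Igkv12-38 stood between them at 21.3% and 36.4%. The non-family segments with numbers next to the J-proximal members, Igkv5-37, Igkv5-39 and Igkv5-43, used J1 for 9.91% to 21.1% and J5 for 46.6% to 53.8%. One number outside that range on either side, Igkv18-36 used J1 for 2.19% and J5 for 68.6%, and Igkv5-48 used them for 9.33% and 44.2%. Igkv12-40 and Igkv12-38 were nearer to these 5 neighbours than Igkv12-41, Igkv12-44 and Igkv12-46 were. Farther out the numbered neighbours varied. Beside Igkv12-89, Igkv1-88 used J1 for 41.8%, while Igkv14-87-2, Igkv4-90 and Igkv4-91 used it for 30.3%, 11.3% and 1.66%. Igkv1-99, beside Igkv12-98, used J1 for 10.4%, while Igkv10-96 and Igkv14-100, each 2 numbers away, used it for 53.9% and 36.0%. The segments with the numbers 36, 48, 96 and 100 were added after their values were seen. These are descriptions with no test.

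Igkv12-40 differed most from its relatives. Its J5 share was 30%, 35%, 75.0%, 100% and 26.1% in WT replicates 1 to 5, on 40, 40, 12, 10 and 23 counts. In rsCBE it was 68.9%, 67.1%, 67.3%, 70.6% and 62.2%, on 74, 85, 52, 34 and 37 counts. The rsCBE samples lay close together and the WT samples spanned most of the scale, so the groups overlapped. Within samples its J5 share was 35.1 points above that of the other members, in 10 of 10 samples, and its J1 share was lower, at -29.5 points, in 10 of 10. Both had an exact sign-flip p of 0.00195 and an adjusted p of 0.0342 over 35 tests, of which 11.4% were called. Without WT replicate 4 the offsets were 30.04 and -29.2 points.

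The other tests of the 35 that passed were the J1 shares of Igkv12-38, lower by a mean of -21.0 points in 9 of 10 samples, and of Igkv12-46, higher by 8.42 points in 9 of 10 (adjusted exact sign-flip p 0.0342 each). These comparisons of members used all 10 samples whatever their counts, so WT replicate 4 enters with 7 counts of Igkv12-38 and 1 of Igkv12-98. Without it the Igkv12-38 offset was -19.9 points (unadjusted exact sign-flip p 0.00781). With each clonotype counted once it was -8.98 points with an unadjusted exact p of 0.109. For Igkv12-98, the member that joins by deletion, J1 was higher by 13.3 points and J5 lower, at -10.2 points, and neither passed (adjusted exact sign-flip p 0.188 and 0.164). Without WT replicate 4 these offsets were 6.86 and -8.41 points.

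A set of 4 members had at least 10 counts in every sample and could be tested for J5 between genotypes. Igkv12-44 had a J5 share of 20%, 20.4%, 18.8%, 12.5% and 35% in WT and 30.3%, 33.3%, 27%, 52.8% and 38.7% in rsCBE. WT replicate 5 was the only WT sample inside the rsCBE range. The difference was 15.1 points (exact permutation p 0.0317, adjusted p 0.0952). Igkv12-41 had 15.6%, 15.3%, 33.3%, 0% and 20% in WT and 38.9%, 30.5%, 39.3%, 20.3% and 28.6% in rsCBE. Its groups overlapped through WT replicate 3. The difference was 14.7 points (exact permutation p 0.0476, adjusted p 0.116).

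Igkv12-46, the most used member, had a J5 share of 16.0%, 10.9%, 18.3%, 57.1% and 19.0% in WT and 26.3%, 23.8%, 31.4%, 33.6% and 27.03% in rsCBE. WT replicate 4, with 28 counts of the segment, was above every rsCBE sample and the other WT samples were below all of them. With that sample the difference was 4.13 points (adjusted exact permutation p 0.807) and without it 12.3 points (adjusted exact permutation p 0.0308). Igkv12-40 differed by 13.99 points (adjusted exact permutation p 0.524), which was 35.5 points among the 1-library and -0.34 points among the 2-part samples. It ran from 7.21 points without WT replicate 5 to 25.7 points without WT replicate 4. With all samples none of the 66 V segments tested was called (0%), 40.9% had an unadjusted exact permutation p under 0.05, among them 2 of the 4 members, and 93.9% were higher in rsCBE. The median difference over the 66 was 9.41 points.

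As shares of the whole repertoire, V-J pairs of the family were not called either. None of 22 tested member pairs passed, and none of all 270 pairs did (0%) by edgeR, with 25 at an unadjusted p under 0.05, of which 2 were member pairs. DESeq2 called 3 pairs, none of them a member pair. For Igkv12-46, the member with the most counts in both genotypes, the log2 fold change was -0.71 (SE 0.33) with J1, -0.25 with J2, -0.15 with J4 and 0.11 with J5, and the smallest adjusted p was 0.481 by edgeR. Among the 1-library samples alone 12.3% of 285 pairs were called and 2 of them were member pairs, Igkv12-40 with J5 (log2 1.94, SE 0.41, adjusted p 0.00935 by edgeR) and Igkv12-38 with J1 (log2 -1.41, SE 0.43, adjusted p 0.0413 by edgeR). Those fits rest on 2 samples per genotype, and these pairs are named after their values were seen.

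A join was counted as in frame where its CDR3 length was a multiple of 3 and its amino acids held no stop. The family's in-frame share was 80.2%, 75.7%, 74.1%, 70.1% and 78.6% in WT and 76.2%, 70.6%, 67.0%, 73.8% and 65.3% in rsCBE. The genotypes overlapped. The means were 75.7% ± 3.97 and 70.6% ± 4.53 (SD, n = 5 each), a difference of -5.15 points (exact permutation p 0.111, adjusted p 0.270). With each clonotype counted once it was -9.93 points (exact permutation p 0.0317, adjusted p 0.0680). None of 17 families was called (0%), 3 had an unadjusted exact permutation p under 0.05, and the median difference over the 17 was -4.44 points.

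Igkv12 joins were in frame more often than the pooled other joins of the same sample, and the family was the 6th highest of 20 by mean in-frame share. The offset was 5.44 points ± 1.66 (SD, n = 10), between 3.49 and 8.27 points, and above 0 in 10 of 10 samples (exact sign-flip p 0.00195, adjusted p 0.00326). The other joins were in frame at a mean of 70.4% ± 3.99 among WT samples and 65.04% ± 3.13 among rsCBE samples (SD, n = 5 each).

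By member, the mean in-frame share over 10 samples was 55.1% for Igkv12-40, 66.0% for Igkv12-38 and 70.4% to 77.5% for the other 5. Igkv12-40, whose reference V region holds a stop, had in-frame CDR3 shares of 45%, 47.5%, 8.33%, 100% and 91.3% in WT and 56.8%, 41.2%, 53.8%, 58.8% and 48.6% in rsCBE. WT replicates 4 and 5, with 10 and 23 counts, lay above every other sample. Its in-frame share was below that of the other members by a mean of -18.8 points, in 8 of 10 samples, with an exact sign-flip p of 0.0527 and an adjusted p of 0.205. Without WT replicate 4 the offset was -24.5 points with an unadjusted exact p of 0.00781. Over all samples together 52.1% of its counts and 40% of its clonotypes were in frame.

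Between genotypes none of the 4 testable members was called for the in-frame share, nor was any of 66 segments (0%), of which 10 had an unadjusted exact permutation p under 0.05. The differences were -5.67 points for Igkv12-44, -5.25 for Igkv12-41, -6.58 for Igkv12-40 and 3.01 for Igkv12-46. The sign turned for Igkv12-46 and Igkv12-40. For Igkv12-41 and Igkv12-44 it stayed below 0 in every alternative that gave a value, and the size varied. For Igkv12-46 the difference was -3.49 points without WT replicate 4, and -13.1 points with each clonotype counted once (exact permutation p 0.00794, adjusted p 0.0926). For Igkv12-40 it ran from -19.1 points without WT replicate 3 to 3.82 points without WT replicate 4. For Igkv12-41 it was -0.62 points without rsCBE replicate 3, and for Igkv12-44 it ran from -9.10 points without WT replicate 2 to -2.87 points without rsCBE replicate 2. Over the 66 segments 74.2% were lower in rsCBE.

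**Figure D4:**
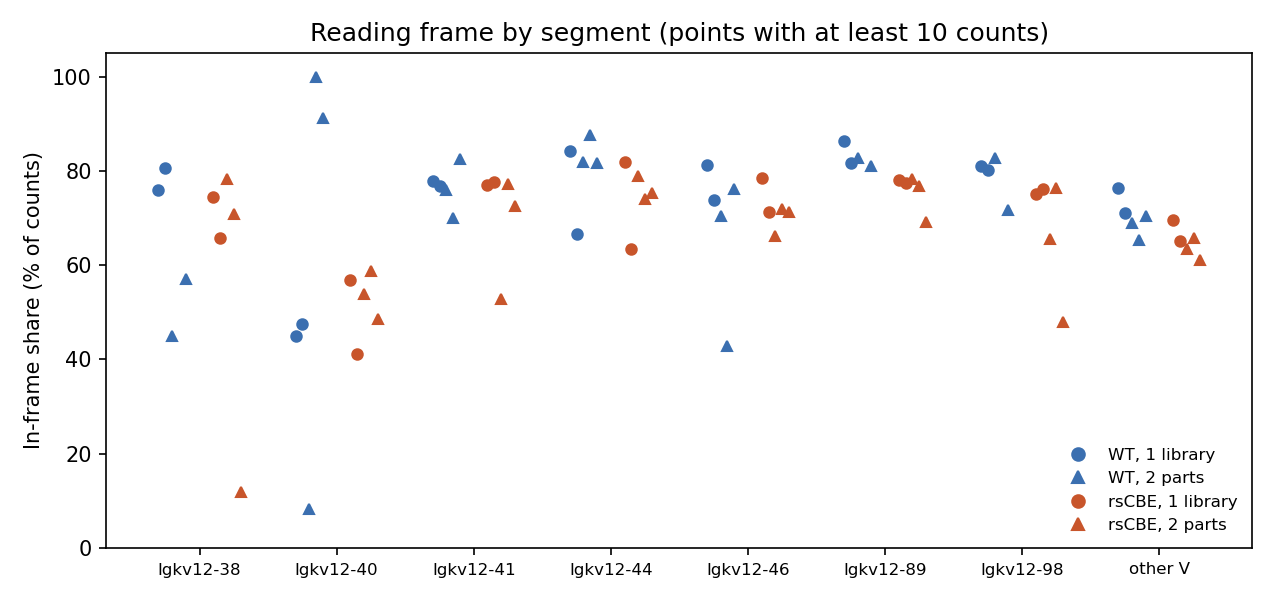
In-frame share of joins (y axis, percent of counts) for each Igkv12 segment and for all other V segments; each point is 1 sample with at least 10 counts of the segment, coloured by genotype, with circles for 1-library and triangles for 2-part samples. Igkv12-40 spreads from 8.33% to 100% in WT and lies between 41.2% and 58.8% in rsCBE, while most points of the other members lie above 60%.

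The joints of the 7 members were built in much the same way. Each CDR3 was read from its start against its V segment up to the first mismatch, and the rest from its end against its J segment. Bases between these matches were called unassigned. A mismatch within the V part therefore counts the later V bases as lost and, where J does not match them, as unassigned. Such mismatches were not told apart from trimmed or added bases. Bases that fit both were given to V. The most frequent in-frame CDR3 of every member lacked the last 3 V bases, had no unassigned base and was 27 bases long. Printed here are those of Igkv12-46 (with J1), Igkv12-40 (with J5) and Igkv12-38 (with J2), with the J bases in capitals.
Igkv12-46 with J1: caacatttttggggtactccGTGGACG
Igkv12-40 with J5: caacattattatggtactccGCTCACG
Igkv12-38 with J2: aaacaggcttatgacgttccGTACACG
Over the 10 samples these made up a mean of 19.6% of Igkv12-46 counts, 24.6% of Igkv12-40 counts (18.5% without WT replicate 4) and 13.6% of Igkv12-38 counts. In the other 4 members the leading in-frame CDR3 was the like joint with J1, at 15.4% to 19.4%. For Igkv12-46 the WT mean was 20.01% ± 8.98 and the rsCBE mean 19.1% ± 4.04 (SD, n = 5 each), which differ by less than the spread between samples.

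The joint with 3 V bases lost and nothing unassigned, with any J, made up 46.98% of all 7224 family counts joined to J1, J2, J4 or J5, and 61.7% of those in frame. By member it ranged from 41.03% of counts in Igkv12-40 to 55.1% in Igkv12-89. A complete V end, with no base lost, was the next most frequent end in Igkv12-98, at 22.2%, against 8.45% to 15.9% in the other members. Igkv12-98 differs from the others in its last V base, and bases that fit both V and J were given to V. How much of this contrast comes from that was not tested. In-frame CDR3 were 27 bases long in 88.1% ± 3.67 of the family's in-frame counts and in 76.0% ± 2.40 of those of all other V segments (SD, n = 10 each). The mean in-frame CDR3 length was 26.9 bases in both genotypes, with a difference of 0.03 bases and an adjusted exact permutation p of 0.992, and 0% of 17 families were called.

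**Figure D5:**
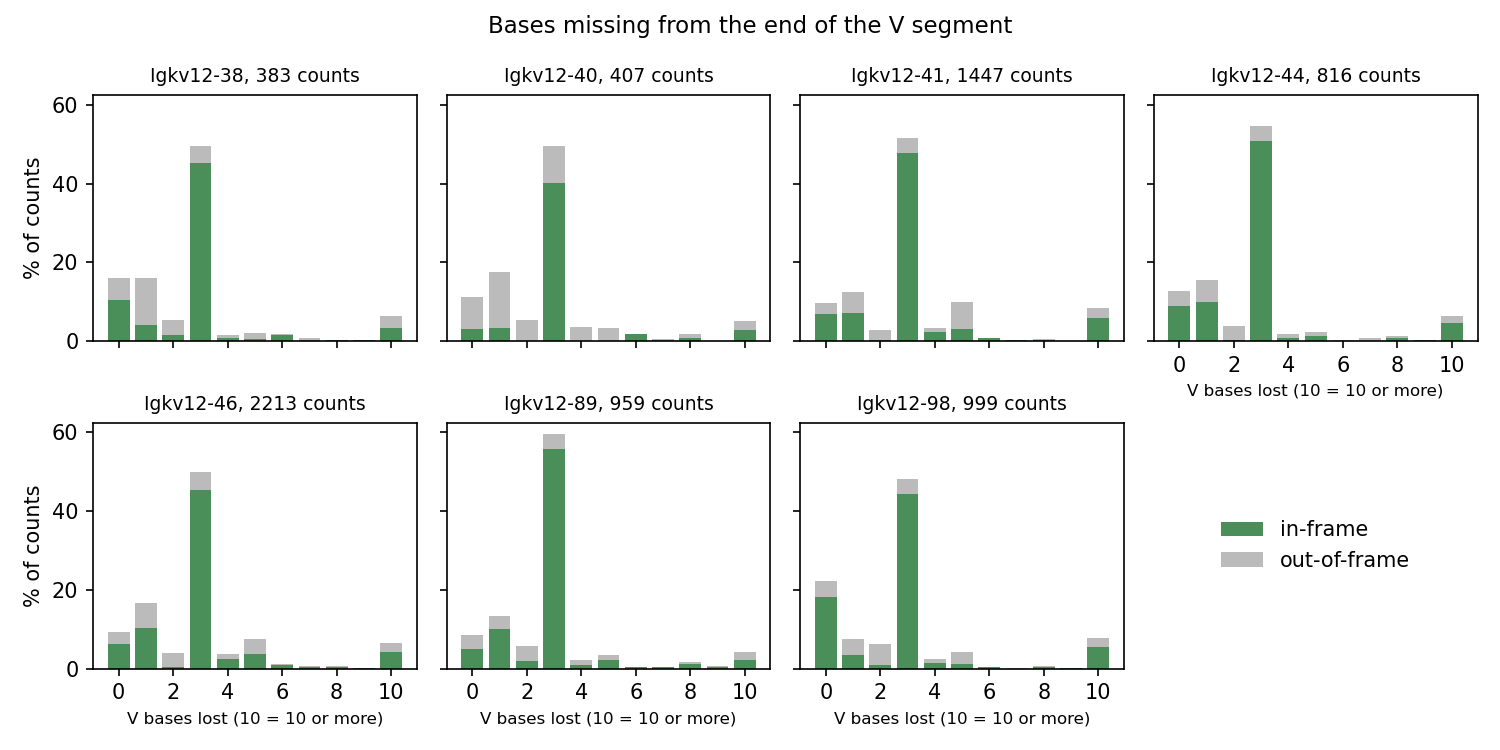
Share of a segment's counts (y axis, percent, 10 samples together) by the number of bases missing from the end of the V segment (x axis, 10 standing for 10 or more), 1 panel per Igkv12 segment with its number of counts; green is in frame and grey out of frame. The bar at 3 bases is the tallest in all 7 panels, between 48.1% and 59.5%, and is mostly in frame. V bases from the first mismatch onward count as missing, so the higher numbers can hold mismatches as well as trimming.

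The leading out-of-frame joint was also shared. In Igkv12-38, Igkv12-40, Igkv12-41, Igkv12-44 and Igkv12-46 it was a join to J5 of 25 bases, shown for Igkv12-40 with the J bases in capitals.
Igkv12-40 with J5, out of frame: caacattattatggtactcctcACG
It lacks 1 V base and 4 J bases, and the 3 letters before the capitals occur at the V end and in J5, so their origin cannot be told apart. It was 14.3% ± 6.48 of Igkv12-40 counts in rsCBE and 4.37% ± 4.46 in WT (SD, n = 5 each), with rsCBE values of 8.82% to 21.6% and WT values of 0 to 10%, and this difference was not tested. In Igkv12-46 the like joint had a mean of 4.02% ± 1.13 among rsCBE and 10.8% ± 14.6 among WT samples (SD, n = 5 each), where WT replicate 4 was at 35.7% on 10 counts of the joint. Without that sample the WT mean was 4.63% ± 4.98 (SD, n = 4). In Igkv12-89 and Igkv12-98 the leading out-of-frame joint was a join to J1 of 26 bases.

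The family's joints were compared between genotypes on 6 measures chosen after the data were seen, and none passed (0%). V bases lost averaged 3.92 ± 0.411 per count in the WT group and 3.29 ± 0.313 in the rsCBE group (SD, n = 5 each). Unassigned bases averaged 1.40, 1.48, 1.47, 2.18 and 1.72 per count in WT and 1.5, 1.06, 0.705, 1.09 and 1.12 in rsCBE. Only rsCBE replicate 1 was inside the WT range, and the other 4 rsCBE samples were below all WT samples. For both measures exact permutation gave p = 0.0317, or 0.0952 after adjustment. These measures are not independent, since a mismatch within the V part can raise both and lower the share of joints with no unassigned base. The difference in unassigned bases was -0.557 per count and -1.71 with each clonotype counted once (unadjusted exact permutation p 0.0238). Joints with no unassigned base had WT and rsCBE means of 78.3% ± 4.65 and 83.9% ± 2.45 (SD, n = 5 each), at p = 0.0476 by exact permutation (adjusted p 0.0952). With each clonotype counted once these means were 51.2% ± 2.56 and 59.4% ± 8.35 (exact permutation p 0.0873, adjusted p 0.131). With 1 sample left out, the unadjusted exact permutation p of this measure was no longer under 0.05 in 6 of 10 fits.

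The 7227 counts fell on 1238 distinct clonotypes, meaning combinations of V, J and CDR3 bases. Of these 911 (73.6%) were found in 1 sample, and 9 were found in all 10 samples and held 22.0% of the counts. Clonotypes found in more than 1 sample held 84.2% of the counts. Taken per sample, 58.6% of the family's clonotypes held a single count, and errors among these were not told apart from rare joins. Those 9 were 4 of Igkv12-41, 4 of Igkv12-46 and 1 of Igkv12-44, and 8 of them were in frame. The 5 in-frame CDR3 with the highest mean share of the family were the 27-base joint of Igkv12-46 with J1 (5.68%), of Igkv12-41 with J1 (3.21%) and J2 (2.92%), of Igkv12-46 with J2 (2.53%) and of Igkv12-89 with J1 (2.47%). The Igkv12-41 joint with J2 was at 11.1% in WT replicate 4 and had a mean of 2.01% without it, and over all counts together it held 2.26%, below the 2.88% of each of the last 2.

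At an equal depth of 117 counts, the number of clonotypes expected was 68.0, 74.7, 57.3, 38 and 65.7 in WT and 73.2, 77.0, 69.2, 66.2 and 67.4 in rsCBE. The groups overlapped, and WT replicate 4 was the lowest sample. The means were 60.7 ± 14.1 and 70.6 ± 4.44 (SD, n = 5 each), a difference of 9.87 clonotypes (p = 0.159 by exact permutation). By replicate number all 5 pairs were higher in rsCBE, with an exact sign-flip p of 0.0625, the smallest that 5 pairs allow. Without WT replicate 4, where the smallest sample allowed a depth of 411 counts, the difference was 3.97 (exact permutation p 0.833). Without WT replicate 2 it was 13.4 (exact permutation p 0.0317). At 117 counts it was 3.78 among 1-library and 13.9 among 2-part samples.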

How the data were processed

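The authors deposited 1 table of whole-number counts, each line giving, per the file headers, a library, V calls, a J call, the CDR3 and a count. Per the labels' protocols, RNA of sorted pre-B cells was made into amplicon libraries and sequenced as 151-base paired reads on a MiSeq. The submitters' processing notes name the build mm10. The V and J caller, its germline set, read filters and any use of molecular identifiers are not given in the sources used here. Intervals and depth therefore cover counting error only.

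Alleles were removed from V names, parts a and b of a replicate were added, and 49 duplicate lines were merged. Segment, family and V-J counts were tested over the whole table with edgeR 4.0.16 in R 4.3.3 (quasi-likelihood test, library size as the total count, factors of 1, filterByExpr, Benjamini-Hochberg adjustment at 0.05), with DESeq2 1.42.0 as an alternative. For shares, lengths and richness, the test was a two-sided exact permutation over 252 arrangements on features with at least 10 counts in every sample. Comparisons within samples used exact sign-flips over all 10 samples with no minimum count. The scripts were tested on simulated data. Coordinates and germline V ends come from GENCODE M21.

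Same-numbered WT and rsCBE samples deviated together in V use (r of 0.827, 0.820, 0.638, 0.164 and 0.430 over 89 V segments), and the numbers were taken as pairs. WT replicates 1 and 3 correlated most with their own number. WT replicates 2, 4 and 5 did so with rsCBE replicates 1 (0.835), 5 (0.417) and 4 (0.685) of the same deposition set. These correlations therefore do not set the numbered pairs apart from other pairs of a deposition set. No 2 samples of a genotype agreed within counting error (chi-square per degree of freedom at least 2.39). All 7 members were named. The numbered neighbours, the 3 most alike segments, the leading CDR3 and the V-J pairs of the most counted member followed rules of number, likeness and rank. The members, lists and rules were chosen with earlier results of these data known. Alternatives were other normalizations, no filter, the replicate block, deposition sets, clonotypes counted once, clonotypes of 1 count left out, a minimum of 20 counts, and each sample left out. Another mutant named in the series' text was not analysed here.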

Additional observations from a re-analysis of the deposited data

Results flagged for a closer look

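In 6 of 48 groups of 5 samples examined, 1 sample stood apart from the other 4 by more than 0.71 of the group's range, where chance flags about 1 in 20 groups. Of the 6, 3 are the thin WT replicate 4. Its in-frame CDR3 length for the family was 26.7 bases, and the other WT samples had 26.9 to 26.95. For Igkv12-46 its J5 share was 57.1%, against 10.9% to 19.0%, and its in-frame share was 42.9%, against 70.4% to 81.2%, both on 28 counts.

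The in-frame share of Igkv12-44 was 66.7% in WT replicate 2, while the other WT samples had 81.7% to 87.5%. The in-frame share of Igkv12-41 was 52.9% in rsCBE replicate 3, against 72.4% to 77.5% in the other rsCBE samples. The share of Igkv12-41 in the repertoire was 1.05% in rsCBE replicate 1, against 0.767% to 0.841%.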

How the results depend on the processing

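Of 253 alternatives, samples left out not counted, 229 kept the direction and the side of the threshold, and the cause of the changes was not tested. That tally includes exact tests of 5 pairs, 2 against 2 or 3 against 3 samples, which cannot pass. For results not called before, their side of the threshold was thus fixed in advance. For the within-sample and joint results the tally used unadjusted p values. The J5 share of the family (11.48 points) lost its call with the replicate block (11.48), with labels exchanged within deposition sets (11.48), with each clonotype counted once (7.72) and within the 1-library (16.5) and 2-part (8.12) samples. Within those sets 2 against 2 and 3 against 3 samples cannot pass, nor can 5 pairs (smallest exact p 0.0625), so these say nothing about stability. With labels exchanged within sets the exact permutation p of 0.0167 was the smallest possible, so that loss does not show a smaller difference. Its adjusted p depends on the other families too. The J2 difference turned with clonotypes counted once (0.37) and in the 2-part samples (1.73), and that of CDR3 length in the 1-library samples (-0.0219). Richness passed without clonotypes of 1 count (11.4, unadjusted exact permutation p 0.0159). Within the 1-library samples 2 member V-J pairs were called. Member differences that turned were the J5 share in the 2-part samples for Igkv12-40 (-0.34) and Igkv12-46 (-0.84), and the in-frame share in the 1-library samples for Igkv12-40 (2.72) and Igkv12-46 (-2.54) and with clonotypes counted once for Igkv12-46 (-13.1). Single log2 fold changes that turned were Igkv12-98 in the 1-library samples (-0.0107), Igkv12-46 with J4 under the replicate block (0.12), and Igkv12-46 with J5 with clonotypes counted once (-0.0243) and in the 2-part samples (-0.23). With single samples left out, the J5 difference ran from 10.02 to 12.7 points, J1 from -13.5 to -6.05, J2 from -3.81 to 1.72, CDR3 length from -0.0185 to 0.0446 bases, richness from 3.97 to 13.4 and members called for J5 from 0 to 1 (without WT replicate 4). The in-frame difference ran from -19.1 to 3.82 points for Igkv12-40 and from -3.49 to 6.10 for Igkv12-46, whose J5 difference ran from 0.778 to 12.3. Log2 fold changes ran from -0.38 to 0.11 for Igkv12-44 and from -0.0750 to 0.38 for Igkv12-98. For Igkv12-46 they ran from -0.48 to 0.0383 with J2, from -0.41 to 0.13 with J4 and from -0.0471 to 0.33 with J5. In edgeR the replicate block changed no call of the family or its members. Over all V segments it called 1 and the deposition set as a term 2, against 0, and over V-J pairs the term called 7. WT replicate 4, with 117 family counts, limits what can be detected.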
